A study of Mus musculus with 60 samples.

Results

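The mouse cortex after 3 h of recovery sleep was compared with the cortex of mice that had not been sleep deprived and were taken at the same time of day. The comparison rests on the 14 of 60 arrays that carry these labels, which are 7 mice of the group RS3 and 7 mice of the group CC8. All were males of the inbred strain C57BL/6J, aged 2 months and accustomed to handling, and the labels give no other genotype or agent. RS3 mice were kept awake with a soft brush for 5 h from lights on (ZT0), were then left to sleep for 3 h and were collected at ZT8, whereas CC8 mice were not sleep deprived and were also collected at ZT8. Total RNA from the left side of the cortex was read on whole-transcript Affymetrix mouse arrays, and each array held 1 mouse. Sleep was not recorded by EEG in these mice, so the time that each RS3 mouse slept is not known. For comparison, SD mice (n = 7) were kept awake for 6 h and collected at ZT6 beside CC6 controls (n = 7), RS2 mice (n = 4) had 6 h of deprivation and 2 h of recovery and share the CC8 controls, and RS6 mice (n = 7) had 5 h of deprivation and 6 h of recovery and were collected at ZT11 beside CC11 controls (n = 7).

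Sleep need builds up during wakefulness and is discharged during the deep sleep that follows. In the cortex, long wakefulness is known to raise immediate early genes, which neurons switch on within minutes of activity, the growth factors and synaptic proteins that act after them, and chaperones of the endoplasmic reticulum (ER), where secreted and membrane proteins are folded. The circadian clock, a loop of activators and repressors that act on each other's genes, also responds to wakefulness, so that a control at the same ZT is needed to read any of these genes.

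Levels of single mice are given below as log2 RMA values of a probeset (the probes that together report on 1 transcript), and fold changes come from a limma model that also holds 6 factors of unwanted variation (RUV). A probeset was called at an FDR under 0.01 (Benjamini-Hochberg) over the 32819 probesets that exceeded 4 on the log2 scale in over 50% of the arrays. On the 14 arrays 78.5% to 79.8% of probesets exceeded 4, and the median standard error of an RS3 fold change was 0.0848 on the log2 scale. The array of CC8 replicate 1 stood apart on the first principal component of the 59 arrays with a group, at -30.0 against -3.65 to 16.1 for the other 13, and its 75 small nucleolar RNAs lay a median of 0.53 above the mean of its group, against -0.18 to 0.26 in the others. It is 1 of 5 arrays of the series that stood apart on this component. The others were SD replicates 1 and 2, RS6 replicate 1 and, among the controls at ZT0, replicate 1. All but SD replicate 2 thus carry the replicate number 1, for a reason that was not tested. Without CC8 replicate 1, 16 of the 44 named genes called in RS3 were lost, and they are named below. The 11 measured markers of excitatory neurons, the main cell type of the cortex, averaged 9.49 to 9.59 in RS3 and 9.49 to 9.66 in CC8. The 7 measured markers of the neighbouring striatum ranged more widely, from 8.30 to 9.88 in RS3 and from 8.56 to 9.64 in CC8, with overlap between the groups.

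RS3 differed from CC8 at 56 probesets, 0.171% of those tested. Of these, 36 were higher in RS3 (0.110%) and 20 were lower (0.0609%). Exactly 1 gene symbol was given for 44 of them, 26 higher and 18 lower, while 4 carried several symbols and 8 had no name. The changes were small, between 0.16 and 0.70 for the higher probesets (median 0.29) and between -0.14 and -0.68 for the lower ones (median -0.30), against a median of 0.01 over all tested probesets on the log2 scale. The RMA values of the 7 RS3 and 7 CC8 mice did not overlap at 17 of the 56 probesets, where 0.308% of all probesets were without overlap. The order of the called genes runs from Egr3 at the top to Cabcoco1 at the bottom. The genes just outside the threshold were Hnrnpu (0.29), Htr2a (0.29) and Eml5 (0.19), and those just inside were Gm4285 (-0.26), Ezh1 (-0.18) and Gtf3c6 (-0.21). Leaving out 1 mouse at a time gave between 24 and 63 calls, with 24 without RS3 replicate 1, 30 without RS3 replicate 3 and 34 without CC8 replicate 5. Of the 44 named genes, 12 were called in all 14 of these fits, and 11 were lost in 1 to 4 of them. Without the 5 arrays that stood apart 22 of the 44 were called. Without the RUV factors 5 probesets were called, and all of them were among the 56: Egr3, Sorcs3 and Bdnf, which were higher, and Cabcoco1 and Bhlhe40, which were lower.

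**Figure D1:**
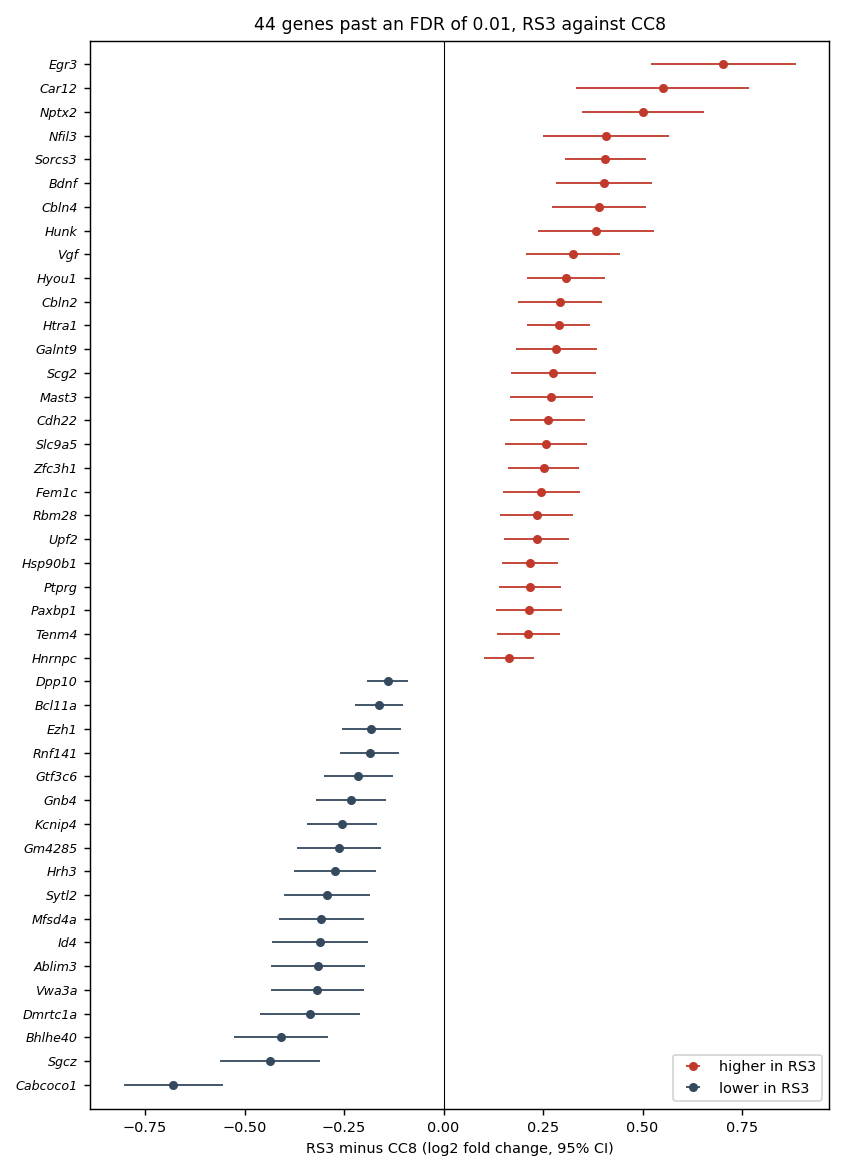
Log2 fold change of RS3 minus CC8 with its unadjusted 95% confidence interval for the 44 called genes with 1 symbol, from the RUV model in limma (n = 7 mice each), with genes higher in RS3 in red above genes lower in RS3 in dark blue. Egr3 stands at 0.70 at the top and Cabcoco1 at -0.68 at the bottom. No interval reaches 0, which follows from choosing these genes by their p in the same fit.

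Genes that neurons induce with activity were divided 3 h into recovery, with Egr3, Nptx2, Bdnf and Vgf higher in RS3 and most others not called. Egr3, a zinc finger transcription factor of the immediate early class, ranged from 8.75 to 9.41 in RS3 (median 8.92) and from 7.87 to 8.79 in CC8 (median 8.23). Of the RS3 mice, 5 lay above every CC8 mouse, and CC8 replicate 1 was the only control within the RS3 range. The difference was 0.70 (SE 0.09), or 1.63-fold, with a limma adjusted p of 9.24e-06. Nptx2, a pentraxin released by neurons that clusters AMPA-type glutamate receptors, ranged from 7.79 to 8.45 in RS3 (median 7.98) and from 7.27 to 7.89 in CC8 (median 7.51). All but 2 RS3 mice were above the highest control, CC8 replicate 1, again the only control within the RS3 range. The difference was 0.50 (SE 0.08, 1.42-fold, adjusted p 0.000211). Bdnf, the brain-derived neurotrophic factor, lay between 6.18 and 6.51 in RS3 (median 6.32) and between 5.75 and 6.02 in CC8 (median 5.96). The groups did not overlap, and the difference was 0.40 (SE 0.06, 1.32-fold, adjusted p 0.000153). These 3 genes were called with any 1 mouse left out. Vgf, a precursor of neuropeptides that neurotrophins induce, was also higher, by 0.32 (SE 0.06, adjusted p 0.00295), with 9.02 to 9.56 in RS3 (median 9.14) and 8.67 to 9.60 in CC8 (median 8.77). The groups overlapped through CC8 replicate 1, the highest of all 14 mice, and the call was lost without RS3 replicate 1 or RS3 replicate 3 (adjusted p up to 0.0151).

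Sorcs3, a sorting receptor of the VPS10 family found in neurons, was higher in every RS3 mouse than in any CC8 mouse. It ranged from 9.60 to 9.79 in RS3 (median 9.68) and from 9.19 to 9.38 in CC8 (median 9.30). The difference was 0.41 (SE 0.05, 1.33-fold, adjusted p 5.41e-06). Sorcs3 and Cabcoco1 were the 2 genes called under each of the 13 other processing settings tried, including a fit of RS3 and CC8 alone without RUV.

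**Figure D2:**
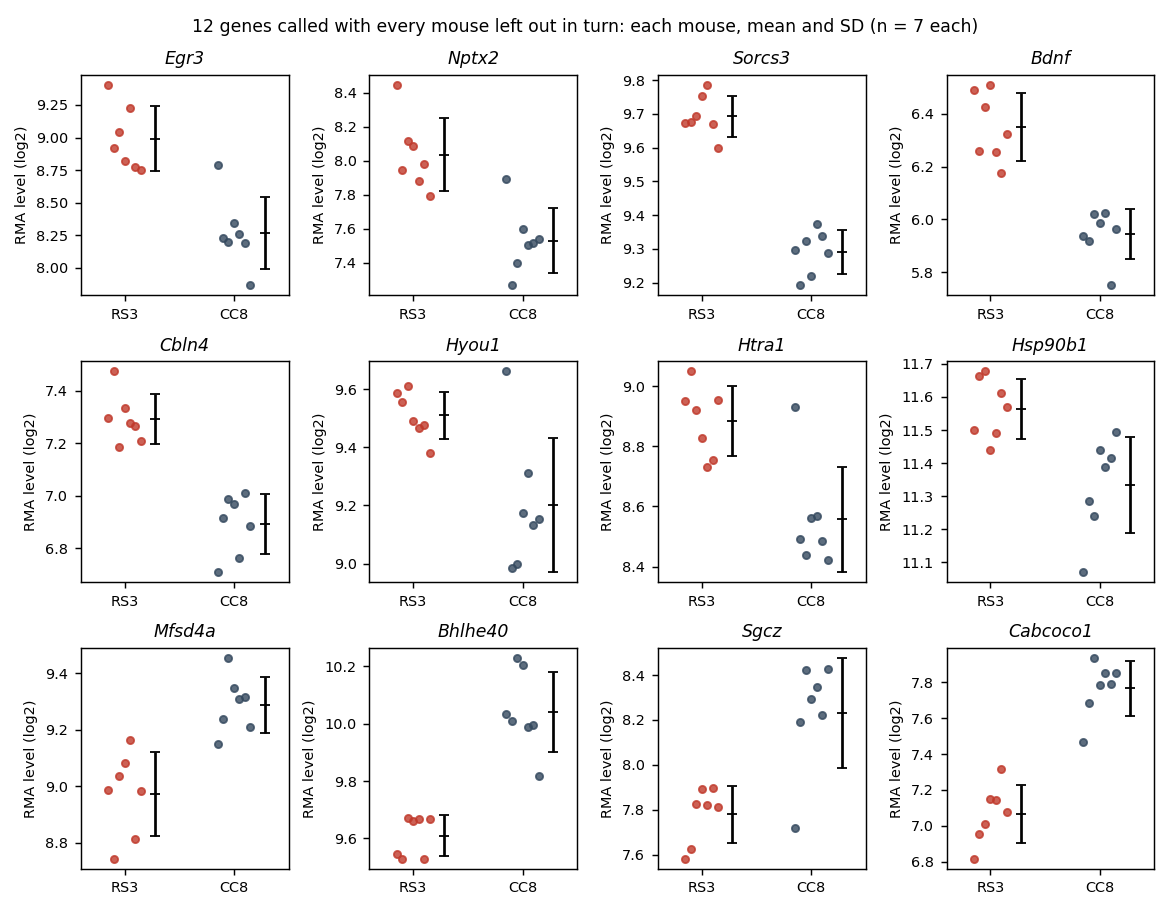
Log2 RMA level of each RS3 mouse (red, left) and each CC8 mouse (dark blue, right) with the mean and SD (n = 7 each) for the 12 genes called with any 1 mouse left out. Sorcs3, Bdnf, Cbln4, Bhlhe40 and Cabcoco1 show no overlap between the groups. For Egr3, Nptx2, Hyou1, Htra1, Sgcz and Mfsd4a the overlap comes from 1 CC8 mouse, replicate 1.

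Most other activity-induced genes were not called in RS3. Arc, a postsynaptic protein that drives removal of AMPA receptors, ranged from 7.69 to 9.07 in RS3 (median 8.05) and from 7.59 to 9.25 in CC8 (median 8.52). The groups overlapped throughout, with a difference of -0.30 (SE 0.24, adjusted p 0.688). Fos, a component of AP-1, a transcription factor of activated cells, differed by -0.05 (SE 0.21, adjusted p 0.962), a sign that turned without CC8 replicate 4 (0.05) or CC8 replicate 6 (0.004). Its 95% interval ran from -0.47 to 0.36, so that a difference of either sign was within the error. Homer1, a postsynaptic scaffold with a short activity-induced form, stood at 0.25 (SE 0.06, adjusted p 0.0436), and Cdkn1a, a cyclin-dependent kinase inhibitor, at 0.33 (SE 0.08, adjusted p 0.0435). Neither passed the threshold, although 4 RS3 mice for Homer1 and 5 for Cdkn1a lay above all controls. In RS3 against CC8, 0.110% of all probesets were called higher and 0.0609% lower. Of 22 measured immediate early transcription factors, 1 was called higher (Egr3) and 1 lower (Bhlhe40), with a list median of -0.04. Of 25 measured effectors that activity induces, 3 were called higher (Nptx2, Bdnf and Vgf), none lower, and the median was 0.08. In SD against CC6, where 1.09% of all probesets were called higher, these lists had 11 of 22 and 15 of 25 members called higher. Among the uncalled effectors, Inhba, a subunit of activin, stood at 0.47 (SE 0.11, adjusted p 0.033).

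The study took 7 genes from earlier work as positive controls for recovery sleep. Its methods tie them to 2 h of recovery and a figure legend to a shorter time, whereas RS3 mice had 3 h. Of the 7 genes, 4 were called higher in RS3, against 0.110% of all probesets, namely Egr3, Nptx2, Bdnf and Hsp90b1. The others were Fosl2, an AP-1 subunit, at 0.35 (SE 0.08, adjusted p 0.0309), Hspa5, the main ER chaperone BiP, at 0.18 (SE 0.06, adjusted p 0.12), and Junb, another AP-1 subunit, at -0.26 (SE 0.14, adjusted p 0.503). Hspa5 ranged from 9.40 to 9.69 in RS3 (median 9.54) and from 9.16 to 9.47 in CC8 (median 9.40), with 5 RS3 mice above all controls. Junb had its highest value, 8.04, in CC8 replicate 1, and its highest RS3 value, 7.57, in replicate 1.

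Among the ER chaperones, 2 of 19 measured members were called higher and none lower, against 0.110% and 0.0609% of all probesets. Hyou1, a large chaperone that works beside BiP, ranged from 9.38 to 9.61 in RS3 (median 9.49) and from 8.98 to 9.66 in CC8 (median 9.15). The difference was 0.31 (SE 0.05, 1.24-fold, adjusted p 0.000449), and CC8 replicate 1 was the only control as high as the RS3 mice. Hsp90b1, the ER form of HSP90, ranged from 11.44 to 11.68 in RS3 (median 11.57) and from 11.07 to 11.49 in CC8 (median 11.39), with 5 RS3 mice above all controls. It was higher by 0.22 (SE 0.04, 1.16-fold, adjusted p 0.000769). Both were called with any 1 mouse left out, but Hsp90b1 was not called without the 5 arrays of the series that stood apart (adjusted p 0.0148). The list median was 0.09, and 14 of its 19 members were positive. Calr, a calcium-binding chaperone, was at 0.20 without overlap between the groups (adjusted p 0.0147). In SD 13 of the 19 were called higher, against 1.09% of all probesets, and Creld2, an ER stress protein, differed between the 2 effects, with 0.04 in RS3 and 0.38 in SD (limma adjusted p of the difference 0.00788). Of 15 cytosolic heat shock proteins none was called, with Hspb1 at 0.35 (adjusted p 0.0234) and Hsph1 at 0.19 (adjusted p 0.0396).

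The promoter of Hsp90b1 is shown because it held the ER stress element 2 times (CCAAT followed at a fixed spacing by CCACG), which 0.119% of the 32851 mouse promoters of RefSeq contain on either strand within 250 bases before to 50 after the start site. Scg2 is shown because it was the only called gene with a listed promoter that held the full CRE, TGACGTCA, found in 1.79% of all promoters. Given are the 250 bases before the start site, from RefSeq on GRCm38.p6, 5′ to 3′ on the strand of the gene, with the motif matches in capitals. Hsp90b1 lies on the minus strand at chr10:86705445-86705694 and Scg2 on the minus strand at chr1:79440027-79440276.
Hsp90b1: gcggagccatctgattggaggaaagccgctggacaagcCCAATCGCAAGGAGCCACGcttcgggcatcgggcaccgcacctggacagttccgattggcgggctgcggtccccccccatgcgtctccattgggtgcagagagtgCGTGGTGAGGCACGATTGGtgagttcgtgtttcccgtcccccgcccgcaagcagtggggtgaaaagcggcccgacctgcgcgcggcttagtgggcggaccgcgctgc
Scg2: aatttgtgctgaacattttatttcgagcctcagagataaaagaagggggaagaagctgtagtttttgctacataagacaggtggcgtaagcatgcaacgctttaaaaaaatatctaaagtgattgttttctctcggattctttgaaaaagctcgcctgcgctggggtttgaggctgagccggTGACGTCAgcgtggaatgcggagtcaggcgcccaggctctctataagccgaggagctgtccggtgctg
Promoters were listed for 20 of the 26 genes called higher and for 13 of the 18 called lower. Among the higher genes, Galnt9 held an E-box (CACGTG, 7.15% of all promoters), Ptprg and Rbm28 held an EGR site (GCGTGGGCG or GCGGGGGCG, 3.47%), and none held an AP-1 site (TGACTCA or TGAGTCA, 5.2%). Among the lower genes, Gtf3c6 and Mfsd4a held an E-box and none held another of these motifs. All were searched on both strands, the ER stress element was added after the calls were seen, and a match is a description of the letters only.

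Secreted proteins that organize synapses and granules were among the called genes. Cbln4, a cerebellin that bridges presynaptic neurexins to postsynaptic receptors, ranged from 7.19 to 7.47 in RS3 (median 7.28) and from 6.71 to 7.01 in CC8 (median 6.92). The groups did not overlap, and the difference was 0.39 (SE 0.06, 1.31-fold, adjusted p 0.000206), called with any 1 mouse left out. Its relative Cbln2 was higher by 0.29 (SE 0.05, adjusted p 0.00282), with 8.28 to 8.53 in RS3 (median 8.46) and 7.84 to 8.40 in CC8 (median 8.14). The Cbln2 call was lost without RS3 replicate 1, CC8 replicate 6 or CC8 replicate 7 (adjusted p up to 0.0185). Cbln4 and Cbln2 were 2 of 17 measured synaptic organizers and adhesion proteins, where 0.110% of all probesets were called higher. The other 15 were not called, and the list median was 0.04. Of 18 neuropeptides and granins, 2 were called higher, Vgf and Scg2, against 0.110% of all probesets, with a list median of 0.10. Scg2, a granin of dense core vesicles, ranged from 10.00 to 10.24 in RS3 (median 10.11) and from 9.64 to 9.97 in CC8 (median 9.83), without overlap. Its difference was 0.28 (SE 0.05, adjusted p 0.00532), and the call was lost without any 1 of RS3 replicates 1, 2, 3 and 6 and CC8 replicates 1, 4 and 5 (adjusted p up to 0.0219). Cort, which encodes the peptide cortistatin, stood at 0.39 without overlap but did not pass (adjusted p 0.0595).

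Of 18 measured clock genes, 1 was called lower in RS3 and 1 higher, against 0.0609% and 0.110% of all probesets. Bhlhe40, a repressor that binds E-boxes and belongs to both the clock and the immediate early genes, was the lower one. It ranged from 9.53 to 9.67 in RS3 (median 9.66) and from 9.82 to 10.23 in CC8 (median 10.01). Every RS3 mouse was below every control, and the difference was -0.41 (SE 0.06, 1.33-fold lower, adjusted p 8.03e-05), called with any 1 mouse left out. Nfil3, a repressor at the D-box elements of clock output genes, was higher by 0.41 (SE 0.08, 1.33-fold, adjusted p 0.00515), with 6.32 to 6.45 in RS3 (median 6.37) and 5.63 to 6.31 in CC8 (median 6.02). No value overlapped, but the call was lost without any 1 of RS3 replicates 1, 3, 4, 6 and 7 and CC8 replicates 1, 3, 4 and 5 (adjusted p up to 0.019). Dbp, an activator at the same D-box elements, was at -0.35 (SE 0.08, adjusted p 0.0194), and Per1, a repressor of the core loop, at -0.33 (SE 0.07, adjusted p 0.0114). For each of these 2 genes 6 RS3 mice lay below all controls, and neither passed in the full fit. Bhlhe41, the close relative of Bhlhe40, was at -0.28 (adjusted p 0.0402) and Arntl, which encodes the clock activator BMAL1, at 0.16 (adjusted p 0.0888). Both were without overlap between the groups in RMA values, as were 4 of the 18 measured clock genes in all, against 0.308% of all probesets. The list median was -0.09, with 6 of 18 members positive. Cirbp, an RNA-binding protein induced by cold, was at -0.30 (SE 0.09, adjusted p 0.0937). It was the 1 measured gene of a list of 2 cold-inducible RNA-binding proteins. A probeset with 2 symbols, Rbm3 and Rbm3-ps, stood outside the lists. It was called lower in RS3 at -0.37 without overlap (SE 0.06, adjusted p 0.000247), and in SD at -0.31 (adjusted p 0.000795).

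The remaining higher genes were of varied function. Htra1, a secreted serine protease, ranged from 8.73 to 9.05 in RS3 (median 8.92) and from 8.42 to 8.93 in CC8 (median 8.49). It was higher by 0.29 (SE 0.04, 1.22-fold, adjusted p 4.50e-05) in every fit with 1 mouse left out, and CC8 replicate 1 was far above the other controls. Car12, a membrane carbonic anhydrase, was higher by 0.55 (SE 0.11, adjusted p 0.00682), next to Egr3 among genes with 1 symbol, with 6.88 to 7.34 in RS3 (median 7.12) and 6.12 to 6.93 in CC8 (median 6.61). With 1 mouse left out it was called in 4 of 14 fits, those without RS3 replicate 4 or 7 or CC8 replicate 2 or 7 (adjusted p up to 0.0276 in the others, and 0.0237 without CC8 replicate 1). Hunk, a kinase related to SNF1, ranged from 7.38 to 7.88 in RS3 (median 7.58) and from 7.06 to 7.45 in CC8 (median 7.25), and was higher by 0.38 (SE 0.07, adjusted p 0.00438). Its call was lost without any 1 of RS3 replicates 1, 4 and 5 and CC8 replicates 3 and 7 (adjusted p up to 0.0175). Galnt9, an enzyme that starts O-glycosylation, was higher by 0.28 (SE 0.05, adjusted p 0.00265) and was lost without RS3 replicate 1 or 3 (adjusted p up to 0.0125). The others were Mast3, a kinase (0.27), Cdh22, a cadherin (0.26), Slc9a5, a sodium and proton exchanger (0.26), Fem1c, a subunit of a ubiquitin ligase (0.25), Ptprg, a receptor tyrosine phosphatase (0.22), and Tenm4, an adhesion protein of the teneurin family (0.21). Tenm4 was lost without RS3 replicate 3 alone among these fits (adjusted p 0.0104), and its other, dimmer probeset was at 0.07 (adjusted p 0.832). Cdh22 and Ptprg were lost without RS3 replicate 1 or CC8 replicate 3 (adjusted p up to 0.0128 and 0.0103), while Mast3, Fem1c and Slc9a5 were called in 8, 7 and 5 of the 14 fits. Without CC8 replicate 1 the adjusted p was 0.0134 for Mast3 and 0.0188 for Slc9a5.

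For 4 more of the higher genes, Upf2, Zfc3h1, Paxbp1 and Rbm28, CC8 replicate 1 was the lowest mouse by far. Upf2, a factor of nonsense-mediated decay, ranged from 9.17 to 9.30 in RS3 (median 9.26) and from 8.58 to 9.22 in CC8 (median 9.09), and was higher by 0.23 (SE 0.04, adjusted p 0.00171). Zfc3h1, which directs nuclear RNA to the exosome, ranged from 8.96 to 9.21 in RS3 (median 9.08) and from 8.20 to 8.97 in CC8 (median 8.85), and was higher by 0.25 (SE 0.05, adjusted p 0.00205). For both genes 6 RS3 mice were above all controls, and the only single mouse whose removal ended the call was CC8 replicate 1, with an adjusted p of 0.0132 for Upf2 and 0.0159 for Zfc3h1. Paxbp1, a splicing-related protein (0.21), and Rbm28, a nucleolar RNA-binding protein (0.23), were also lowest in CC8 replicate 1, at 8.07 and 8.06, and were called in 4 and 5 of the 14 fits. Hnrnpc, a protein that coats nascent transcripts, was higher by 0.16 (SE 0.03, adjusted p 0.00491) without overlap, at 10.31 to 10.55 in RS3 (median 10.36) and 10.13 to 10.28 in CC8 (median 10.21), and was called in 7 of the 14 fits. Without CC8 replicate 1 the adjusted p was 0.0393 for Paxbp1, 0.0301 for Rbm28 and 0.0123 for Hnrnpc, a gene for which that mouse was the highest control.

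Among the lower genes, Cabcoco1, a calcium-binding coiled-coil protein associated with cilia, had the largest difference and the smallest p. It ranged from 6.82 to 7.32 in RS3 (median 7.08) and from 7.47 to 7.93 in CC8 (median 7.79). Every RS3 mouse was below every control, and the difference was -0.68 (SE 0.06, 1.60-fold lower, adjusted p 1.29e-09). Sgcz, zeta-sarcoglycan, a membrane protein of the dystrophin complex, ranged from 7.58 to 7.90 in RS3 (median 7.82) and from 7.72 to 8.43 in CC8 (median 8.29). The overlap came from CC8 replicate 1 at 7.72, and the difference was -0.43 (SE 0.06, 1.35-fold lower, adjusted p 8.03e-05). Mfsd4a, a transporter of the major facilitator family, ranged from 8.74 to 9.16 in RS3 (median 8.99) and from 9.15 to 9.45 in CC8 (median 9.31), with 6 RS3 mice below all controls. The overlap came from CC8 replicate 1 at 9.15. Mfsd4a was lower by 0.31 on the log2 scale (log2 fold change -0.31, SE 0.05, adjusted p 0.00167). These 3 genes were called with any 1 mouse left out, while Mfsd4a was lost without the 5 arrays that stood apart (adjusted p 0.0129) and its other, dimmer probeset was at 0.07 (adjusted p 0.796).

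Hrh3, the histamine H3 receptor, was the 1 called gene of 23 measured receptors for monoamines and other modulators. It was lower in RS3, where 0.0609% of all probesets were called lower. It ranged from 9.30 to 9.45 in RS3 (median 9.40) and from 9.43 to 9.88 in CC8 (median 9.65), with 6 RS3 mice below all controls. The difference was -0.27 (SE 0.05, adjusted p 0.00403), and a second probeset of the gene also stood at -0.27 (adjusted p 0.264). The call was lost without any 1 of RS3 replicates 1, 2 and 4 and CC8 replicates 1, 4 and 5 (adjusted p up to 0.0206). In the same list Htr2a, the serotonin 2A receptor, was at 0.29 without overlap (adjusted p 0.011). Kcnip4 and Dpp10, both partners of Kv4 potassium channels, were lower, with -0.25 (SE 0.04, adjusted p 0.00167) and -0.14 (SE 0.03, adjusted p 0.00359). CC8 replicate 1 was the lowest of all 14 mice for both, at 9.40 for Kcnip4 and 10.35 for Dpp10, below every RS3 mouse, whereas the other 6 controls lay above every RS3 mouse. Kcnip4 was lost without RS3 replicate 1 (adjusted p 0.0101), and Dpp10 without RS3 replicates 1 or 6 or CC8 replicates 4 or 5 (adjusted p up to 0.0224). Of 26 potassium channels none was called, against 0.171% of all probesets called in either direction.

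The other lower genes were of varied function. Id4, an inhibitor of helix-loop-helix transcription factors, was at -0.31 (SE 0.06), Ezh1, a methyltransferase for lysine 27 of histone H3, at -0.18 (SE 0.04), Bcl11a, a zinc finger transcription factor of cortical neurons, at -0.16 (SE 0.03), and Gtf3c6, a subunit of the RNA polymerase III factor TFIIIC, at -0.21 (SE 0.04). Gtf3c6 had 7.98 to 8.14 in RS3 (median 8.05) and 8.16 to 8.38 in CC8 (median 8.29) without overlap, but it was called in 2 of the 14 fits. Dmrtc1a (-0.34) and Vwa3a (-0.32) were the next lowest, followed by Ablim3, an actin-binding protein (-0.32), Sytl2, an effector of Rab27 in vesicle docking (-0.29), Gm4285 (-0.26), Gnb4, a G protein beta subunit (-0.23), and Rnf141, a RING finger protein (-0.19). Apart from Vwa3a, lost without RS3 replicate 1 and CC8 replicates 4 and 5, each gene of this paragraph was lost with 5 or more of the 14 mice left out in turn (adjusted p up to 0.0429). Without CC8 replicate 1 the adjusted p was 0.0429 for Gtf3c6, 0.0324 for Gm4285, 0.0237 for Ezh1, 0.0228 for Bcl11a and 0.0159 for Gnb4.

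The effect in RS3 was then set beside that at the end of deprivation in SD against CC6, which has its own controls. Of the 36 probesets higher in RS3, 21 were also called higher in SD, where 1.09% of all probesets were, and 1, Hunk, was called lower. Of the 20 lower in RS3, 8 were also called lower in SD, where 0.844% were, and 1, Bhlhe40, was called higher. Read the other way, 21 of 357 probesets called higher in SD (5.88%) and 8 of 277 called lower (2.89%) were called the same way in RS3. The 357 had a median of 0.09 in RS3 and 0.33 in SD, and the 277 a median of -0.06 in RS3 and -0.26 in SD. Both sets were chosen by their SD effect, so a larger SD median follows in part from the choice. The effect was 0.70 in RS3 and 0.82 in SD for Egr3, 0.50 and 0.58 for Nptx2, 0.31 and 0.29 for Hyou1, and 0.29 and 0.25 for Htra1, and the differences of these effects did not pass the threshold (limma adjusted p 0.847 to 0.965). The standard error of the difference was 0.14 for Egr3, 0.11 for Nptx2, 0.07 for Hyou1 and 0.06 for Htra1. Other genes called with any 1 mouse left out had effects further apart. Cbln4 stood at 0.39 in RS3 and 0.73 in SD, and Cabcoco1 at -0.68 in RS3 and -0.28 in SD. Neither difference passed the threshold (limma adjusted p 0.0524 for Cbln4 and 0.0223 for Cabcoco1).

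**Figure D3:**
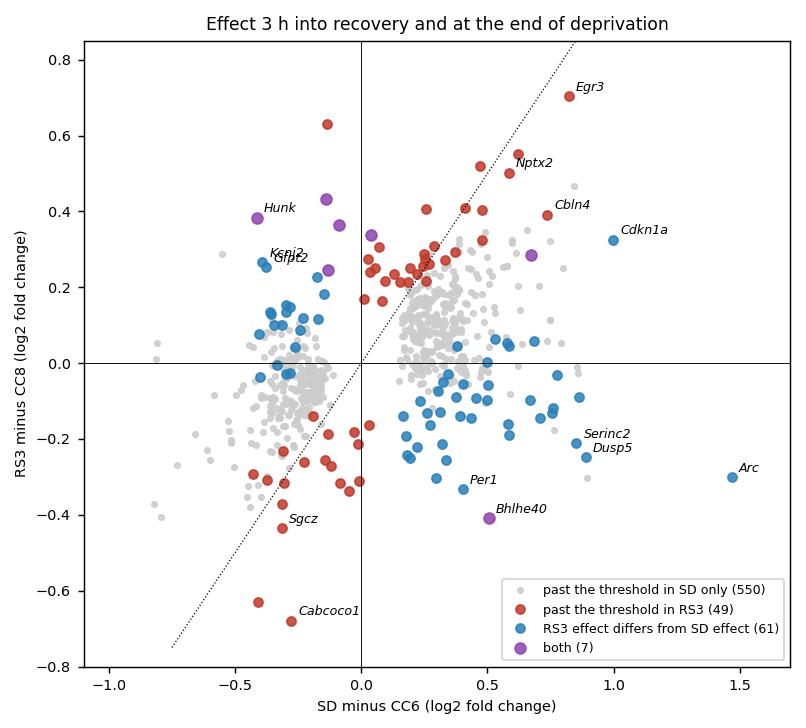
Log2 fold change of RS3 minus CC8 (vertical axis) against that of SD minus CC6 (horizontal axis) for probesets past an FDR of 0.01 in at least 1 of the 2 comparisons or in the test of their difference. Red points (49) were called in RS3, blue points (61) differed between the effects, purple points (7) did both and grey points (550) were called in SD alone, and the dotted line marks equal effects. The labelled genes Arc, Dusp5, Serinc2, Per1 and Bhlhe40 lie below 0 in RS3 and above 0 in SD.

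The RS3 effect differed from the SD effect at 68 probesets (0.207% of those tested). It lay below the SD effect at 43 of them, of which 37 were called higher in SD. These 43 had a median of -0.13 in RS3 and 0.45 in SD, and 35 were negative in RS3. Such medians describe probesets chosen for the difference. Arc showed the largest gap among the named genes, -0.30 in RS3 and 1.47 in SD, a difference of -1.77 (SE 0.35, adjusted p 0.00514). This call was lost without any 1 of RS3 replicates 4 to 7, CC8 replicates 1, 4 and 6, SD replicates 2 and 3, and CC6 replicates 2, 5, 6 and 7 (adjusted p up to 0.0143), and without the 5 arrays that stood apart (adjusted p 0.0247). Dusp5 and Dusp6, phosphatases that switch off MAP kinases, stood at -0.25 and -0.15 in RS3 and at 0.89 and 0.71 in SD, with differences of -1.14 (SE 0.14, adjusted p 2.62e-06) and -0.85 (SE 0.14, adjusted p 0.000422). Bhlhe40 differed by -0.91 (SE 0.09, adjusted p 2.55e-09), since it was lower in RS3 (-0.41) and higher in SD (0.51). Per1 was likewise at -0.33 in RS3 and 0.40 in SD, a difference of -0.73 (SE 0.10, adjusted p 3.77e-05). Cdkn1a was positive in both, 0.33 in RS3 and 1.00 in SD, and differed by -0.67 (SE 0.12, adjusted p 0.00149).

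Further genes with an RS3 effect below that of SD were Serinc2 (-1.06), Egr1, the immediate early relative of Egr3 (-0.95), and Sik1, a salt-inducible kinase (-0.89). To these came Klf10, an immediate early transcription factor (-0.88), Rasd1, a small GTPase that glucocorticoids induce (-0.81), and the nuclear receptor Nr4a3 (-0.78). In RS3 these 6 lay between -0.21 and -0.03, and none was called. Egr1 lost its difference without RS3 replicate 6, CC8 replicate 4, CC6 replicate 6 or CC6 replicate 7 (adjusted p up to 0.0119), and also without the 5 arrays that stood apart (adjusted p 0.0170). Galnt9 was higher in both, with 0.28 in RS3 and 0.67 in SD, and its difference of -0.39 (SE 0.08, adjusted p 0.00385) was lost without RS3 replicate 6 or 7, CC8 replicate 4, SD replicate 2 or CC6 replicate 6 (adjusted p up to 0.0216).

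The RS3 effect lay above the SD effect at 25 probesets, of which 19 were called lower in SD. Their median was 0.13 in RS3 and -0.30 in SD, which again describes probesets chosen for the difference. Hunk was higher in RS3 (0.38) and lower in SD (-0.41), a difference of 0.80 (SE 0.11, adjusted p 2.04e-05) that held with any 1 mouse of the 4 groups left out. Kcnj2, an inward rectifier potassium channel, stood at 0.27 in RS3 and -0.39 in SD (difference 0.66, SE 0.12, adjusted p 0.00213), and Gfpt2, an enzyme of hexosamine synthesis, at 0.25 in RS3 and -0.38 in SD (difference 0.63, SE 0.11, adjusted p 0.00157). Neither was called in RS3 alone. Fem1c was called in RS3 at 0.25, stood at -0.13 in SD and differed by 0.38 (SE 0.07, adjusted p 0.00284). The remaining named genes were Pcdh20 (0.50), Nectin3 (0.49), Rasgef1b (0.48), Sorbs2 (0.45), Hecw2 (0.44), Cdh9 (0.43) and Dipk2a (0.43), of which Pcdh20, Nectin3 and Cdh9 encode adhesion proteins. In RS3 these 7 lay between 0.08 and 0.15 without a call. Pcdh20 was called in 23 and Sorbs2 in 19 of the 28 fits that left out 1 mouse of RS3, CC8, SD or CC6, and the other 5 in all of them. Sorbs2 was also lost without the 5 arrays that stood apart (adjusted p 0.0106). The other, brighter probeset of Sorbs2 was called in neither comparison, at 0.08 in RS3 (limma adjusted p 0.450) and -0.07 in SD (limma adjusted p 0.475). RS3 mice had 5 h of deprivation and SD mice 6 h, and the groups were taken at different ZT with their own controls, so that recovery, the length of deprivation and the time of day cannot be told apart in these differences.

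**Figure D4:**
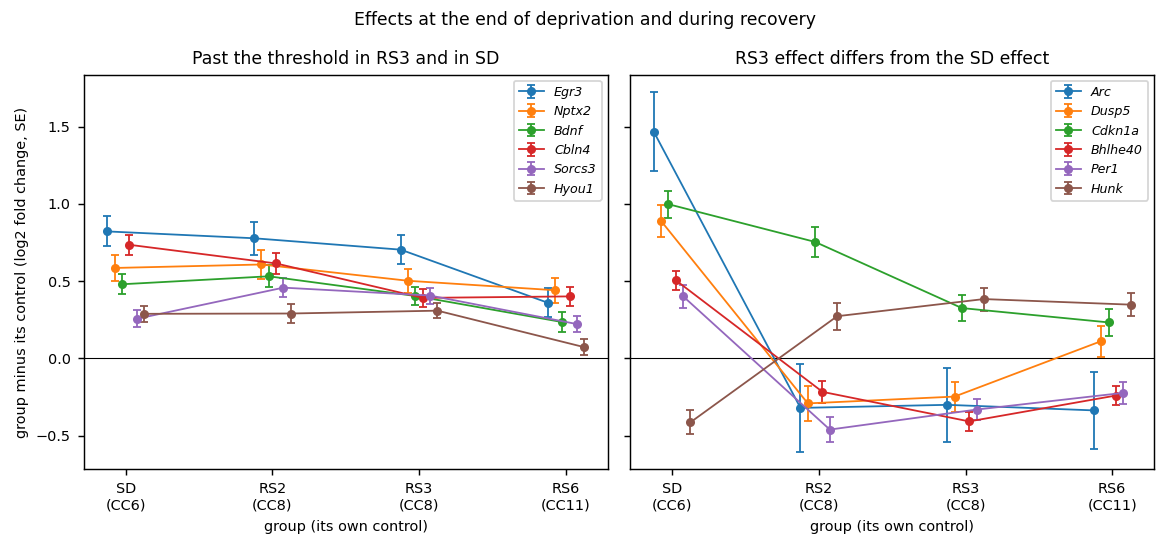
Log2 fold change with its standard error of SD (against CC6), RS2 and RS3 (both against CC8) and RS6 (against CC11), from the RUV model in limma. In the left panel Egr3, Nptx2, Bdnf, Cbln4, Sorcs3 and Hyou1 stay above 0 in SD, RS2 and RS3, and in the right panel Arc, Dusp5, Bhlhe40 and Per1 are above 0 in SD and below 0 in RS2 and RS3, while Hunk is the reverse.

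RS2 mice were collected at the same ZT and share the CC8 controls, so their values are given beside those of RS3 without a comparison. Egr3 stood at 0.78 in RS2 and 0.70 in RS3, Bdnf at 0.53 and 0.40, Cbln4 at 0.61 and 0.39, and Cabcoco1 at -0.62 and -0.68. Bhlhe40 was at -0.22 in RS2 (adjusted p 0.161) and -0.41 in RS3, and Cdkn1a was called in RS2 at 0.75 and not in RS3 at 0.33. At ZT11, RS6 mice were set against other controls. Of the 36 probesets higher in RS3, 6 were called higher in RS6, where 0.119% of all probesets were, and 31 were above 0 there, as were 52.7% of all probesets. Of the 20 lower in RS3 none was called lower in RS6 (0.0305% of all), and 16 were below 0. The called genes with 1 symbol were Nptx2 (0.44), Cbln4 (0.40), Cbln2 (0.33), Fem1c (0.27), Htra1 (0.26) and Hsp90b1 (0.20). Egr3 was at 0.36 (adjusted p 0.0479), Bdnf at 0.23 (adjusted p 0.0506) and Cabcoco1 at -0.17 (adjusted p 0.206). Whether the RS6 effects differ from those of RS3 was not tested.

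**Figure D5:**
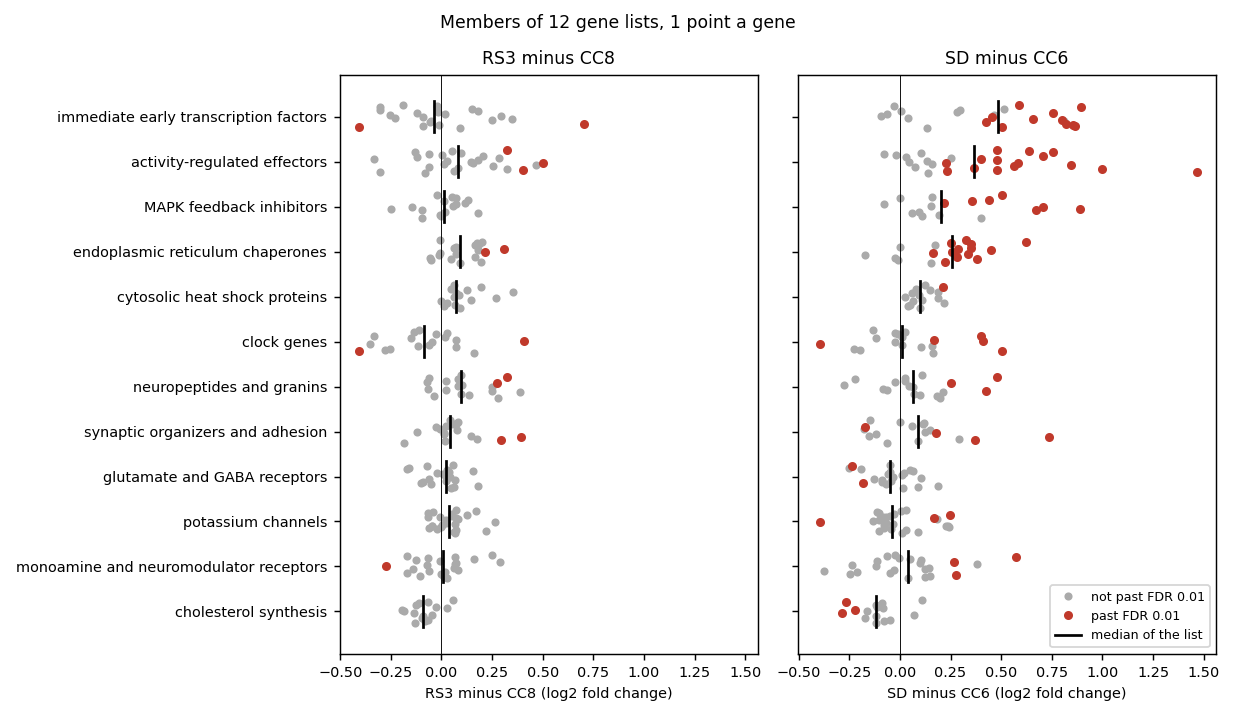
Log2 fold change of each measured gene in 12 gene lists for RS3 minus CC8 (left) and SD minus CC6 (right), with genes past an FDR of 0.01 in red, others in grey and the list median as a black bar. For RS3 the medians lie between -0.09 and 0.10, and for SD that of immediate early transcription factors lies at 0.49.

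Over all probesets, 0.110% were called higher and 0.0609% lower in RS3, and 1.09% higher in SD. Their median in RS3 was 0.01, and their share of positive signs, with which sign counts would be compared, is not given here. Across the gene lists, 12 different genes were called in RS3. Besides those above, no member was called among 16 MAPK feedback inhibitors (median 0.01, with 7 called higher in SD), 18 genes that glucocorticoids induce (median 0.01, with 8 called higher in SD), 21 glutamate and GABA receptors (0.02), 22 translation factors (0.01), 30 ubiquitin-specific proteases (0.02) and 15 histone deacetylases and corepressors (0.01). Of 15 genes of cholesterol synthesis none was called, and 13 were negative with a median of -0.09. Msmo1, a sterol demethylase, was the lowest at -0.19 (adjusted p 0.033). Among the cell type markers, none was called in any of the 9 lists. All 10 measured markers of oligodendrocytes were negative (median -0.07), with a mean level of 9.21 to 9.42 in RS3 and 9.19 to 9.48 in CC8. Of 13 microglia markers 10 were negative (median -0.06), with 7.80 to 7.96 in RS3 and 7.83 to 8.06 in CC8, and of 11 endothelial markers 10 were positive (median 0.06), with 8.08 to 8.27 in RS3 and 7.99 to 8.19 in CC8. Their part in the differences of single genes was not tested, and in tissue RNA a smaller share of a cell type and less RNA per cell cannot be told apart.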

How the data were processed

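Cortical RNA was measured on 60 whole-transcript Affymetrix mouse arrays, of which 59 had a group and 1 was left out because its labels name different recovery times. The authors deposited RMA values on the log2 scale (background corrected, quantile normalized and summarised by probeset), and whether RUV preceded deposit is not given in the sources used here. Of 41345 probesets, the 32819 that exceeded 4 in over 50% of arrays were kept. RUV by replicates was written in R 4.3.3, with 6 factors, all kept probesets as controls and the 9 groups as replicate sets. limma 3.58.1 was fitted to all 59 arrays with groups and factors as terms, adjusted by Benjamini-Hochberg at an FDR under 0.01, and tested on simulated data. The contrast of RS3 with CC8 minus that of SD with CC6 came from the same fit. Of the kept probesets, 19494 had 1 gene symbol, 1445 several and 11880 none. Only those with 1 symbol are named, apart from the probeset of Rbm3 and Rbm3-ps, named after its values were seen. The number of arrays limits the precision.

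Named genes were the 15 largest increases and decreases among called probesets with 1 symbol, the 7 positive controls, called members of 28 gene lists, a set given whether called or not (Arc, Fos, Homer1, Cdkn1a, Per1, Cirbp and Dbp, with Per2 not analysed here), and the 10 largest differences from SD in each direction. Called genes outside this rule (such as Upf2 and Fem1c) and uncalled list members were named after their values were seen. Genes and lists were chosen with earlier results of these data known. For a list, the probeset with the highest mean stands for a gene. Other settings tried were no filter, a filter at 6, a second quantile normalization, 3, 9 or no RUV factors, factors subtracted, array weights, limma trend, the replicate number as a block, the compared groups alone, leaving out arrays, and a striatum covariate. Leaving out SD and CC6 mice and the ER stress element were added after seeing the data.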

Additional observations from a re-analysis of the deposited data

Results flagged for a closer look

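In groups of 7 mice, 19 of 142 pairs of a named gene and a group held a mouse that stood far from the others, which chance gives in about 1 of 20 groups, and 13 of the 19 were CC8 replicate 1. In that mouse Vgf (9.60), Htra1 (8.93), Mast3 (9.06), Junb (8.04) and Cdh22 (8.55) were high, and Sgcz (7.72), Kcnip4 (9.40), Dipk2a (9.40), Upf2 (8.58), Zfc3h1 (8.20), Dpp10 (10.35), Paxbp1 (8.07) and Rbm28 (8.06) were low on the log2 RMA scale. The others were RS3 replicate 1, high for Fosl2 (8.12) and Junb (7.57) and low for Kcnip4 (9.42), RS3 replicate 2, low for Tenm4 (9.17), CC8 replicate 6, low for Bdnf (5.75), and CC8 replicate 7, low for Cdkn1a (7.23).

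The RS3 effect minus the SD effect passed the test of the difference, in limma at an FDR under 0.01, for 24 named genes. It was positive for Hunk (0.80), Kcnj2 (0.66), Gfpt2 (0.63), Pcdh20 (0.50), Nectin3 (0.49), Rasgef1b (0.48), Sorbs2 (0.45), Hecw2 (0.44), Cdh9 (0.43), Dipk2a (0.43) and Fem1c (0.38). It was negative for Arc (-1.77), Dusp5 (-1.14), Serinc2 (-1.06), Egr1 (-0.95), Bhlhe40 (-0.91), Sik1 (-0.89), Klf10 (-0.88), Dusp6 (-0.85), Rasd1 (-0.81), Nr4a3 (-0.78), Per1 (-0.73), Cdkn1a (-0.67) and Galnt9 (-0.39).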

How the results depend on the processing

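All 56 called probesets that were tested kept their sign under every setting, but their number did not stay. Against 56 calls, RS3 differed from CC8 at 118 probesets with a filter at 6, 95 with 9 RUV factors and 89 with limma trend. It differed at 157 with the factors removed from the values and not modelled. Without RUV there were 5 calls, and 2 with the compared groups alone and no RUV. Without the 5 arrays that stood apart there were 34 (29 of them among the 56). Leaving out 1 mouse gave 24 to 63. At an unadjusted limma p under 0.05 the main fit had 3856 of the 32819 tested probesets. Without RUV 1695 were under 0.05, which is close to the share of 0.05 that chance alone gives. With the compared groups alone and no RUV there were 2521. The difference of the RS3 and SD effects had 68 calls, against 103 with a filter at 6, 186 with the factors removed from the values, 34 without RUV, 114 with array weights (estimated without full convergence), 14 with the compared groups alone and no RUV, and 50 to 80 with 1 mouse left out. The lists held 12 called genes, and 3 without RUV. Mice with the same replicate number correlated between -0.03 and 0.21, over 0.1 in 1 of 7 pairs, and 3 of 7 RS3 mice matched their own number best. The rule set for pairing was a correlation over 0.1 in every pair, so mice of the same number were not taken as paired. A rule this strict cannot decide whether they were. The paper describes daily repeats of the protocol that each gave 1 animal per time point. No source used here ties the replicate number to the day, and the main fit holds no term for the day. With the number as a replicate block there were 78 calls for RS3, 53 for the difference and 14 in the lists, and the block ended the call of the difference for Arc, Pcdh20 and Fem1c among the 24 genes named for it. Fos, not called, ran from -0.12 without RS3 replicate 1 to 0.0461 without CC8 replicate 4 (0.004 without CC8 replicate 6), and Rasd1 from -0.0902 without CC8 replicate 7 to 0.0343 without CC8 replicate 6 (0.02 without RS3 replicate 5). The causes were not tested.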
